A study of Mus musculus with 9 samples.

Results

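The genes described are Igf1, which encodes insulin-like growth factor 1 (IGF1), Igf1r, which encodes its receptor, and 6 genes of IGF binding proteins, Igfbp2 to Igfbp7. They were taken by symbol and make up 8 of the 19933 genes of the array that were tested. Each is measured by 1 probe set, a group of short probes along the transcript that is summarized as 1 value. RNA was profiled on Affymetrix mouse Gene 1.0 ST arrays in 3 preparations of mouse heart cells with 3 biological replicates each: adult cardiac fibroblasts, embryonic cardiac fibroblasts, and embryonic cardiomyocytes, which were positive for YFP from an Nkx reporter. The series looked for fibroblast-derived candidates that make myocytes proliferate. The sources used here do not give the strain, the embryonic stage, the adults' age or sex, or whether the fibroblasts had been cultured. No group is described as carrying another allele or as treated.

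IGF1 and IGF2 are secreted growth factors. Both act through the IGF1 receptor, a tyrosine kinase that signals through insulin receptor substrates to PI3K and AKT, and they promote the growth and survival of many cells, heart muscle among them. Outside the cell most IGF is held by IGF binding proteins, which lengthen its life and control its access to the receptor; proteases release it again. Several of these proteins also bind matrix or cell surfaces and have effects that do not need IGF.

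In adult fibroblasts the binding protein genes Igfbp7, Igfbp3 and Igfbp6 were higher than in embryonic fibroblasts, and Igfbp5, Igf1r and Igfbp4 were lower. In embryonic fibroblasts Igfbp3, Igfbp7, Igf1, Igfbp5 and Igfbp4 were higher than in embryonic cardiomyocytes, and none of the 8 genes was called lower. Of the 8 genes over the 3 comparisons, Igfbp7 had the largest difference, 12.3-fold higher in adult fibroblasts than in cardiomyocytes. A gene is called when its adjusted p (limma across all 19933 genes, Benjamini-Hochberg) is under 0.05. Values are log2 units of RMA, so that 1 unit is a factor of 2 between RMA values. Levels of different genes are not compared, since each probe set has its own response.

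The arrays of a group resembled each other, with mean correlations over all probes of 0.970 to 0.994 with the other arrays of their group. The lowest belonged to adult fibroblast replicate 3. Cardiomyocyte markers (12 genes, Tnnt2 and Tnni3 among them) averaged 7.79 to 8.15 in adult fibroblast arrays, 10.82 to 11.53 in embryonic fibroblast arrays and 12.39 to 12.54 in cardiomyocyte arrays. Fibroblast markers (12 genes) averaged 10.60 to 10.75, 10.19 to 10.41 and 8.90 to 9.09 in the same groups. Single fibroblast markers moved in opposite directions between the fibroblast groups. In adult against embryonic fibroblasts 6 were called higher and 2 lower (-2.24 to 2.22), beside 8.34% and 11.2% of all genes. The embryonic fibroblast arrays thus carried both kinds of marker. Endothelial markers (10 genes) averaged 8.95 to 9.997 in adult fibroblasts, 9.70 to 10.18 in embryonic fibroblasts and 8.54 to 8.93 in cardiomyocytes, and macrophage markers (10 genes) 8.70 to 9.43, 7.99 to 8.35 and 7.41 to 7.47. RMA values have no 0, so none of these markers can be called absent. The Y-linked gene Eif2s3y lay between 4.67 and 5.10 in adult fibroblasts, against 8.43 to 8.53 in embryonic fibroblasts and 8.51 to 9.33 in cardiomyocytes, so that the sex of the animals cannot be told apart from their age in the results below. In such bulk RNA, fewer cells of a type and less RNA per cell cannot be told apart either.

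Igf1, the ligand gene, had its highest mean in embryonic fibroblasts. It had values of 9.09, 9.21 and 9.51 in adult fibroblasts, 9.80, 9.75 and 9.44 in embryonic fibroblasts and 8.88, 8.61 and 8.53 in cardiomyocytes. Every fibroblast array, adult or embryonic, lay above every cardiomyocyte array, while the 2 fibroblast groups overlapped. Igf1 was 1.98-fold higher in embryonic fibroblasts than in cardiomyocytes (log2 difference 0.99 ± 0.15, SE of the limma fit, n = 3 arrays in each group, limma adjusted p = 0.00137) and 1.51-fold higher in adult fibroblasts than in cardiomyocytes (0.60 ± 0.15, adjusted p = 0.00961). The SEs and intervals of differences here and below rest on a spread that limma shares among all 9 arrays and moderates across genes, not on the 2 groups compared alone. Between adult and embryonic fibroblasts the difference of -0.39 (95% interval -0.72 to -0.06) did not pass the test (limma adjusted p = 0.1). It passed without adult fibroblast replicate 3, the array in which Igf1 was highest of its group (-0.51, adjusted p = 0.026), and the adjusted p ranged from 0.0046 to 0.269 over all alternatives. Macrophages are known to make Igf1. Macrophage markers averaged 8.70 to 9.43 in adult fibroblast arrays, 7.99 to 8.35 in embryonic fibroblast arrays and 7.41 to 7.47 in cardiomyocyte arrays. The part of other cell types in the Igf1 level was not tested.

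Igf1r, the receptor gene, was lowest in adult fibroblasts. Its values were 9.36, 9.30 and 8.74 there, 9.85, 10.01 and 9.69 in embryonic fibroblasts and 9.77, 9.98 and 9.69 in cardiomyocytes. The embryonic groups overlapped almost fully, and all adult arrays lay below them, replicate 3 by the widest margin. Igf1r was 1.64-fold lower in adult than in embryonic fibroblasts (log2 difference -0.72 ± 0.17, limma adjusted p = 0.0137) and 1.60-fold lower than in cardiomyocytes (-0.68 ± 0.17, adjusted p = 0.00976). The call against embryonic fibroblasts was lost without embryonic fibroblast replicate 2 (-0.64, adjusted p = 0.0566, over a range from 0.00357 to 0.0566). Embryonic fibroblasts and cardiomyocytes differed by 0.04, with a 95% interval of -0.34 to 0.41, so that differences within these bounds could not be told from none. Cardiomyocyte markers were also lower in the adult than in the embryonic arrays. Among the embryonic fibroblast arrays they averaged 11.27, 10.82 and 11.53 in replicates 1, 2 and 3. The part of cardiomyocytes in the Igf1r difference was not tested.

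**Figure D1:**
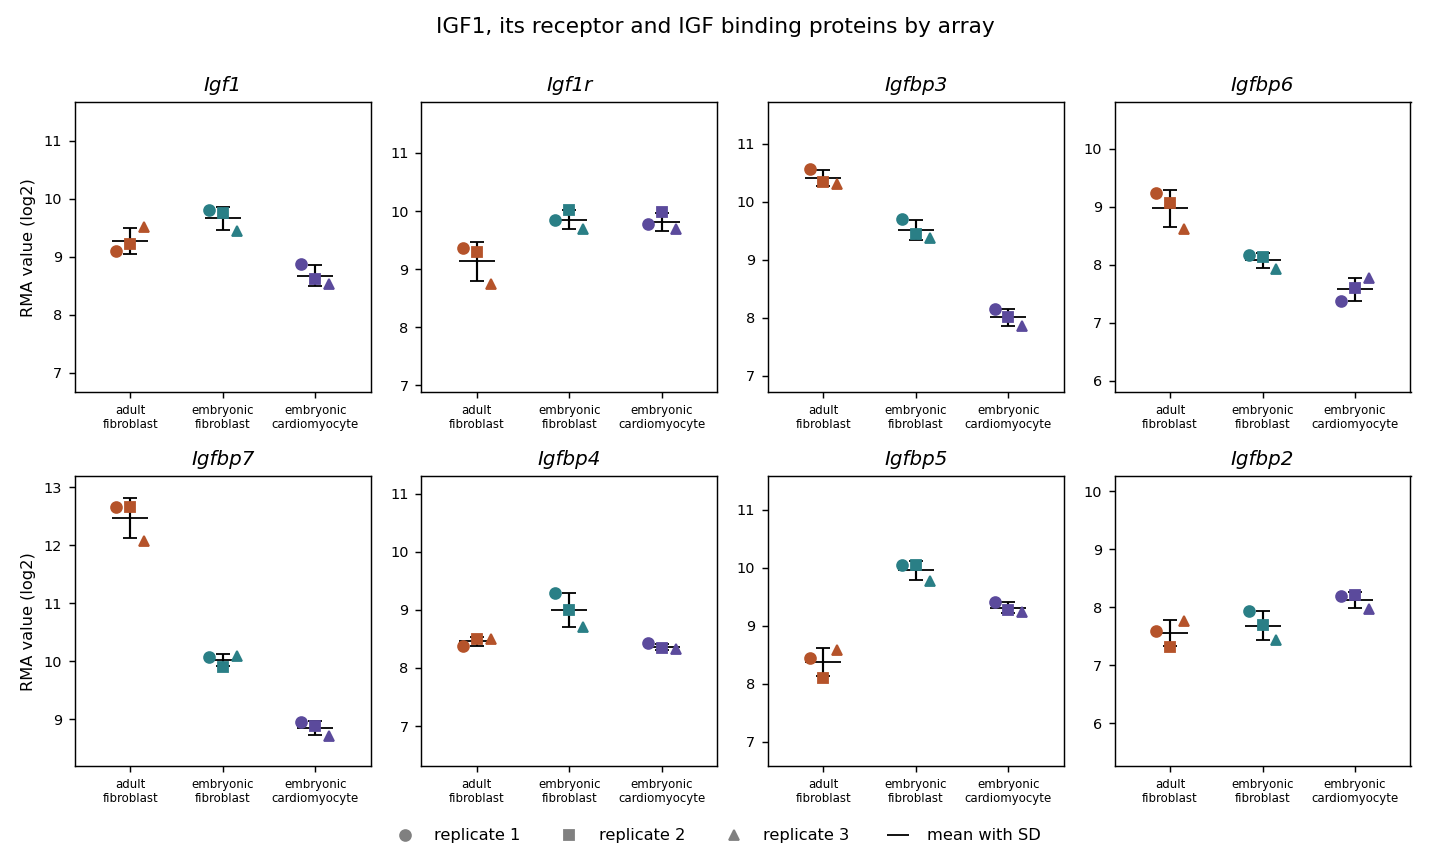
RMA values (log2) of the 8 genes in every array, with adult fibroblasts, embryonic fibroblasts and embryonic cardiomyocytes from left to right; symbols are replicates, bars the mean with SD of 3 arrays, and every panel spans 5 log2 units on its own scale. Igfbp7, Igfbp3 and Igfbp6 step down over the groups without overlap, Igf1r and Igfbp5 are lowest in adult fibroblasts, and Igf1, Igfbp4 and Igfbp5 have their highest mean in embryonic fibroblasts.

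Igfbp7, Igfbp3 and Igfbp6 had one order of means in common, adult fibroblasts above embryonic fibroblasts above cardiomyocytes. Their proximal promoters are printed because these genes moved in the same direction, and that of Igfbp5 because it moved farthest the opposite way between the fibroblast groups. Igf1r and Igfbp4 were also called lower in adult fibroblasts, and their promoters are not printed. The sequences are RefSeq's on GRCm38.p6, from 250 bases before to 50 after an annotated start, which is not necessarily the start used in these cells. Those of the genes on the minus strand are given on that strand. They lie at chr5:77407996-77408295 (minus strand, Igfbp7), chr11:7213874-7214173 (minus, Igfbp3), chr15:102143936-102144235 (plus, Igfbp6) and chr1:72874816-72875115 (minus, Igfbp5). Capitals mark exact matches on either strand to GGGCGG (the core of the GC box), TATAAA (a form of the TATA box) and CCAAT.
Igfbp7: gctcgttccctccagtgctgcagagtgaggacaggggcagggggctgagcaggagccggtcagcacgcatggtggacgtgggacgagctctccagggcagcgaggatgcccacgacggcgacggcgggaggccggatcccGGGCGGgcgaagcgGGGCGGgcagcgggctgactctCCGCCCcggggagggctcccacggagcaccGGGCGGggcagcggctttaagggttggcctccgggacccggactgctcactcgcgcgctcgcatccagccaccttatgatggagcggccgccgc
Igfbp3: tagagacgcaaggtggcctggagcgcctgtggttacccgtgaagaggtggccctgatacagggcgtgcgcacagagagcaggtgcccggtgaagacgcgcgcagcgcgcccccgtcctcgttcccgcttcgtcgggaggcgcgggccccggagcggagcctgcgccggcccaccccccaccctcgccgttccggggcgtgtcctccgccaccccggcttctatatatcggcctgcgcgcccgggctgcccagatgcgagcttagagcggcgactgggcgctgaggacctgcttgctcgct
Igfbp6: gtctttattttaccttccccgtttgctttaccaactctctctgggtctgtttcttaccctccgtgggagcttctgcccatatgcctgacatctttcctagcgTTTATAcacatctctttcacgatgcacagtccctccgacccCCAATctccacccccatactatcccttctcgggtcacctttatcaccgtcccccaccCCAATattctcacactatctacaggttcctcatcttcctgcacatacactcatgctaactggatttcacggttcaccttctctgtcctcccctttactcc
Igfbp5: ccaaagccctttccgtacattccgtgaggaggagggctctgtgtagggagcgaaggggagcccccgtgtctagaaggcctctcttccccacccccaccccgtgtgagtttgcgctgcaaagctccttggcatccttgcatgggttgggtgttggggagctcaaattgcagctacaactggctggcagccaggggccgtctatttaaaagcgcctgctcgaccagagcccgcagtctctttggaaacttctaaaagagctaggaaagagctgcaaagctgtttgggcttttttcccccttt
The 3 genes that moved together did not share these letters. The Igfbp7 window held 4 exact matches to GGGCGG, and the Igfbp6 window 1 to TATAAA and 2 to CCAAT. Those of Igfbp3 and Igfbp5 held none to any of the 3 motifs. The Igf1r window, not printed, held 2 to GGGCGG, and that of Igfbp4, also not printed, 1 to TATAAA at base 223. Variants of a motif were not searched for, so a window without a match may still hold one. The TATAAA match of Igfbp6 reads on the opposite strand at base 103 of the window, not close before the annotated start, which follows base 250. Of all 32851 promoters of this length, 35.7% held GGGCGG, 13.6% TATAAA and 37.4% CCAAT, and no motif overlapped another in the windows shown. CG dinucleotides numbered 33 in the window of Igfbp7, 37 in that of Igfbp3, 8 in that of Igfbp6 and 10 in that of Igfbp5, where the median over all promoters was 7.

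Igfbp7 encodes a secreted protein of the IGFBP superfamily that binds IGF with low affinity and is deposited in vessel walls and matrix. Its values were 12.66, 12.67 and 12.07 in adult fibroblasts, 10.07, 9.91 and 10.08 in embryonic fibroblasts and 8.95, 8.88 and 8.71 in cardiomyocytes. The 3 groups were separate, and adult fibroblast replicate 3 lay below the other 2 adult arrays but well above all embryonic ones. It was 5.45-fold higher in adult than in embryonic fibroblasts (log2 difference 2.45 ± 0.15, limma adjusted p = 7.89e-06), where it ranked number 72 among all genes by the size of the increase. Embryonic fibroblasts exceeded cardiomyocytes 2.25-fold (1.17 ± 0.15, adjusted p = 0.000795). Endothelial cells are a known source of Igfbp7. Of the 10 endothelial markers, 0 were called higher and 2 lower in adult than in embryonic fibroblasts, where 8.34% and 11.2% of all genes were. In embryonic fibroblasts against cardiomyocytes 10 were called higher, where 10.3% of all genes were. Of the 10 macrophage markers, 5 were called higher and 0 lower in adult than in embryonic fibroblasts (median log2 difference 0.82), beside the same 8.34% and 11.2%. The part of either cell type in the Igfbp7 level was not tested.

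Igfbp3, the main IGF carrier of the blood, stood at 10.57, 10.33 and 10.31 in adult fibroblasts, 9.71, 9.45 and 9.37 in embryonic fibroblasts and 8.15, 8.004 and 7.86 in cardiomyocytes. None of its groups overlapped. The difference was 0.89 ± 0.12 between adult and embryonic fibroblasts (1.86-fold, limma adjusted p = 0.000676) and 1.504 ± 0.12 between embryonic fibroblasts and cardiomyocytes (2.84-fold, adjusted p = 7.32e-05), where it held rank 179 among all increases, the highest rank of the 8 genes in that comparison. Igfbp6, whose protein prefers IGF2 over IGF1, had 9.23, 9.06 and 8.61 in adult fibroblasts, 8.17, 8.13 and 7.92 in embryonic fibroblasts and 7.37, 7.596 and 7.77 in cardiomyocytes. Here too the groups did not overlap, but the lowest embryonic fibroblast array lay close above the highest cardiomyocyte array. Igfbp6 was 1.86-fold higher in adult than in embryonic fibroblasts (0.90 ± 0.16, limma adjusted p = 0.00414). Its excess of 0.50 ± 0.16 in embryonic fibroblasts over cardiomyocytes did not pass (limma adjusted p = 0.0613). The excess passed in 7 of the alternatives. Among them were the fit of these 2 groups alone (adjusted p = 0.0188), quantile normalization (adjusted p = 0.0311) and array weights (adjusted p = 0.00403). All alternatives lay between 0.00403 and 0.205. Of the 10 macrophage markers, 5 were called higher and 0 lower in adult than in embryonic fibroblasts, beside 8.34% and 11.2% of all genes. Of the 10 endothelial markers, 0 were called higher and 2 lower there (median -0.43). In embryonic fibroblasts against cardiomyocytes 6 of 10 macrophage, 10 of 10 endothelial and 12 of 12 fibroblast markers were called higher. In these lists 0 were called lower, where 10.3% of all genes were called higher and 11.1% lower. The part of these cell types in the Igfbp3 and Igfbp6 levels was not tested.

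Igfbp5 and Igfbp4 had their highest level in embryonic fibroblasts. Igfbp5, which encodes a binding protein that attaches to extracellular matrix, had 8.45, 8.11 and 8.58 in adult fibroblasts, 10.05, 10.05 and 9.76 in embryonic fibroblasts and 9.42, 9.27 and 9.25 in cardiomyocytes. All 3 groups were separate, with the adult cells lowest. Igfbp5 was 2.99-fold lower in adult than in embryonic fibroblasts (log2 difference -1.58 ± 0.13, limma adjusted p = 4.37e-05, rank 296 among all decreases) and 1.91-fold lower than in cardiomyocytes (-0.94 ± 0.13, adjusted p = 0.000391). Between embryonic fibroblasts and cardiomyocytes it was 1.56-fold higher in the fibroblasts (0.64 ± 0.13, adjusted p = 0.00739). Endothelial markers and those of epicardium and mesothelium also averaged highest in embryonic fibroblasts, and their part in the Igfbp5 level, and in that of Igfbp4, was not tested.

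Igfbp4, the binding protein cleaved by the protease that Pappa encodes, had 8.37, 8.50 and 8.50 in adult fibroblasts, 9.29, 8.998 and 8.71 in embryonic fibroblasts and 8.43, 8.34 and 8.32 in cardiomyocytes. The embryonic fibroblast arrays were all above the rest but were spread widely (SD 0.29), and the adult fibroblasts overlapped the cardiomyocytes. It was 1.56-fold higher in embryonic fibroblasts than in cardiomyocytes (0.64 ± 0.13, limma adjusted p = 0.00726), and 1.45-fold lower in adult than in embryonic fibroblasts (-0.54 ± 0.13, adjusted p = 0.0171). The call between the fibroblast groups did not survive a fit of the fibroblasts alone (adjusted p = 0.0594), the omission of adult fibroblast replicate 1 (adjusted p = 0.058) or that of embryonic fibroblast replicate 2 (adjusted p = 0.0524), over a range from 0.00248 to 0.0594. Adult fibroblasts and cardiomyocytes differed by 0.10, with a 95% interval of -0.20 to 0.39.

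Igfbp2, a binding protein abundant in many fetal tissues, was the one binding protein gene with its highest mean in cardiomyocytes. The values were 7.59, 7.31 and 7.76 in adult fibroblasts, 7.93, 7.70 and 7.43 in embryonic fibroblasts and 8.20, 8.21 and 7.96 in cardiomyocytes. The fibroblast groups overlapped, and embryonic fibroblast replicate 1 lay just below the lowest cardiomyocyte array. Igfbp2 was 1.49-fold lower in adult fibroblasts than in cardiomyocytes (-0.57 ± 0.15, limma adjusted p = 0.0151), a call that was lost without adult fibroblast replicate 2 (adjusted p = 0.053) and without cardiomyocyte replicate 1 or 2 (adjusted p = 0.0579 and 0.0581), over a range from 0.0024 to 0.0581. The difference of -0.44 between embryonic fibroblasts and cardiomyocytes did not pass (adjusted p = 0.0709, with a range from 0.0261 to 0.207), nor did that of -0.13 between the fibroblast groups (adjusted p = 0.598). In the RefSeq annotation Igfbp2 and Igfbp5 are direct neighbours among the protein-coding genes of chromosome 1. Their group means had different orders, with cardiomyocytes highest for Igfbp2 and embryonic fibroblasts highest for Igfbp5. The orders differ only between the embryonic groups, where the Igfbp2 difference was not called.

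**Figure D2:**
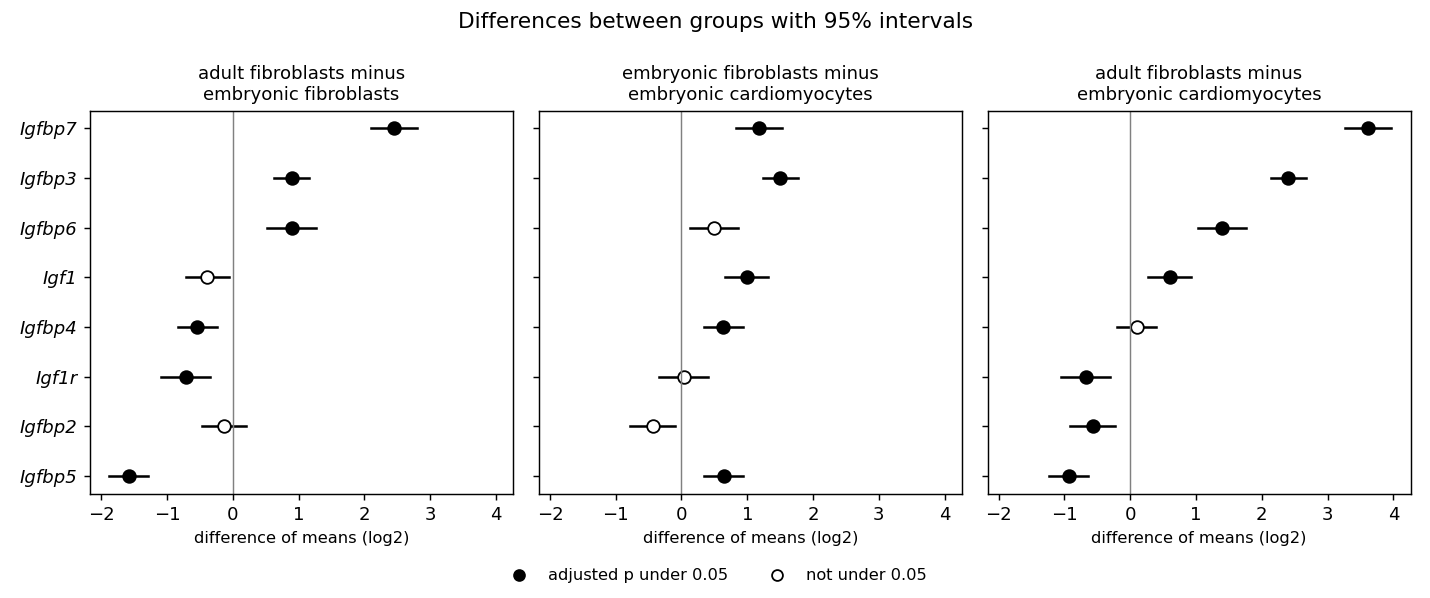
Differences of group means (log2) with 95% intervals for the 8 genes in the 3 comparisons, the group named first minus the other; filled points have a limma adjusted p under 0.05. Igfbp7 is farthest to the right in the adult fibroblast comparisons, at 2.45 and 3.62, and Igfbp5 is at -1.58, 0.64 and -0.94.

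Counted together, 3 of the 8 genes were higher and 3 lower in adult than in embryonic fibroblasts, where 8.34% of all genes were called higher and 11.2% lower (19.5% in either direction). In embryonic fibroblasts against cardiomyocytes 5 were higher and 0 lower, against 10.3% and 11.1% of all genes (21.4% in either direction); of the 3 that were not called, Igfbp2 and Igfbp6 had an unadjusted p under 0.05, at 0.0171 and 0.014. In adult fibroblasts against cardiomyocytes 4 were higher and 3 lower, against 17.4% and 18.2% (35.6%). The groups did not overlap for 6, 7 and 7 of the 8 genes, against 33%, 39.1% and 45.9% of all genes. The median difference of the 8 genes was -0.26, 0.64 and 0.35 in the 3 comparisons, beside 0.04, -0.0003 and 0.06 over all genes. The comparisons share arrays, so they are not independent of each other. The members were picked by name for this family, and the shares of all genes are given only as a scale for the counts.

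The genes with the most similar profiles over the 9 arrays were found by the root-mean-square difference after each gene's own mean was subtracted. For Igfbp7 they were Enpp3, an ectonucleotidase gene (0.19 log2 units), Gpm6b, a membrane glycoprotein gene (0.20), and Egfr, the EGF receptor (0.21), where the spread of Igfbp7 itself over the arrays was 1.52. The nearest genes to Igfbp3 were Dennd4a (0.10), Ankrd28 (0.17) and Cebpg (0.17), with a spread of 1.00. Igfbp6 was nearest to the matrix gene Fbln1, which encodes fibulin-1 (0.10), to Prg2 (0.11) and to Camkk2 (0.12), with a spread of 0.61. For Igfbp5 they were Heph, a ferroxidase gene (0.13), Flrt2 (0.14) and Golm1 (0.15), with a spread of 0.66. The 9 arrays fall into 3 groups, so likeness here is mostly likeness of the 3 means. The other 4 genes had no called difference of 1 log2 unit and were not matched.

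Beyond the 8 genes, 53 further genes of the pathway were listed and 48 were measured by a probe of their own. In adult against embryonic fibroblasts 4 of the 48 were higher and 13 lower, where 8.34% and 11.2% of all genes were, with a median of -0.06 beside 0.04 over all genes. In embryonic fibroblasts against cardiomyocytes 11 were higher and 6 lower, beside 10.3% and 11.1% of all genes (median 0.03 beside -0.0003). In adult fibroblasts against cardiomyocytes 14 were higher and 13 lower, beside 17.4% and 18.2% of all genes (median 0.04 beside 0.06).

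Of 5 further ligand and receptor genes, 3 were lower in adult than in embryonic fibroblasts and 0 higher, where 11.2% of all genes were lower and 8.34% higher. Igf2, the fetal growth ligand, had 8.51, 8.50 and 8.22 in adult fibroblasts, 11.95, 11.77 and 11.63 in embryonic fibroblasts and 11.73, 11.63 and 11.62 in cardiomyocytes. It was 10.4-fold lower in adult than in embryonic fibroblasts (log2 difference -3.37 ± 0.11, limma adjusted p = 2.78e-07), rank 25 among all decreases, while the embryonic groups differed by 0.12 (95% interval -0.12 to 0.37). Igf2r, which removes IGF2 from the cell surface, had means of 10.06 ± 0.09, 11.96 ± 0.08 and 12.28 ± 0.06 (SD, n = 3) in adult fibroblasts, embryonic fibroblasts and cardiomyocytes, and was 3.72-fold lower in adult than in embryonic fibroblasts (adjusted p = 1.08e-06). Insr, the insulin receptor gene, stepped up over the same groups, 10.19 ± 0.08, 11.18 ± 0.25 and 11.90 ± 0.06, and was called in all 3 comparisons (1.99-fold lower in adult than in embryonic fibroblasts, adjusted p = 0.000399). Cardiomyocyte markers were lower in adult than in embryonic fibroblasts in 12 of 12 cases, beside 11.2% of all genes. Their part in the lower receptor genes was not tested.

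Proteases that cut binding proteins release IGF, and stanniocalcins restrain some of them. Of 7 proteases and protease inhibitors, 4 were higher and 0 lower in embryonic fibroblasts than in cardiomyocytes (median 0.63), where 10.3% of all genes were higher and 11.1% lower. In adult against embryonic fibroblasts 2 were higher and 3 lower, where 8.34% of all genes were higher and 11.2% lower. Pappa, which encodes the protease that cleaves Igfbp4 protein, had 7.999, 8.05 and 8.05 in adult fibroblasts, 8.69, 9.11 and 8.63 in embryonic fibroblasts and 7.21, 7.01 and 7.41 in cardiomyocytes. Stc1, whose product stanniocalcin inhibits that protease, had 7.79, 8.08 and 8.09 in adult fibroblasts, 9.50, 9.99 and 9.74 in embryonic fibroblasts and 7.82, 7.18 and 7.46 in cardiomyocytes. Both were thus highest in the group with the highest Igfbp4. In embryonic fibroblasts Stc1 exceeded cardiomyocytes 4.78-fold (2.26 ± 0.18, limma adjusted p = 7.27e-05, rank 43 among all increases) and Pappa 3.04-fold (1.60 ± 0.14, adjusted p = 0.000127), and in adult fibroblasts they were 3.38-fold and 1.71-fold lower than in embryonic fibroblasts (adjusted p = 0.000131 and 0.00391). Adamts1, a secreted metalloprotease gene, had the order of Igfbp3, with means of 11.52 ± 0.09 in adult fibroblasts, 10.59 ± 0.05 in embryonic fibroblasts and 9.95 ± 0.22 in cardiomyocytes. Of the other carriers Igfbp1, Igfbpl1 and Igfals, limma called 0 between the fibroblast groups (1 at an unadjusted p under 0.05) and 0 between the embryonic groups (0 at an unadjusted p under 0.05). Igfals, named after its values were seen, was called higher in adult fibroblasts than in cardiomyocytes (0.29), 1 of these 3 where 17.4% of all genes were.

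**Figure D3:**
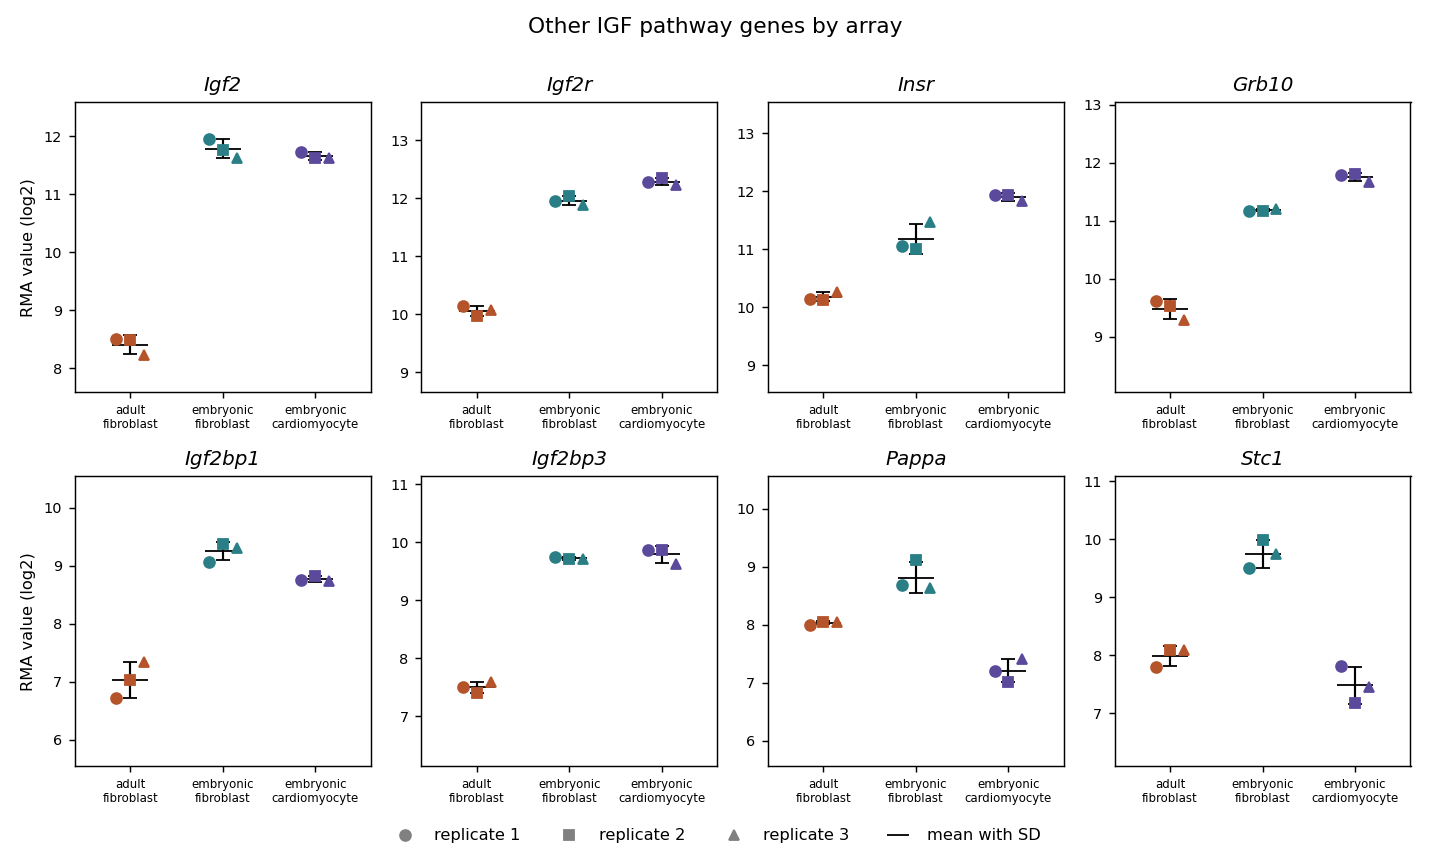
RMA values (log2) of 8 further pathway genes in every array, with adult fibroblasts, embryonic fibroblasts and embryonic cardiomyocytes from left to right; symbols are replicates, bars the mean with SD of 3 arrays, and every panel spans 5 log2 units on its own scale. Igf2, Igf2r, Insr, Grb10, Igf2bp1 and Igf2bp3 are lowest in adult fibroblasts, and Pappa and Stc1 are highest in embryonic fibroblasts.

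Among 9 receptor adaptors, 3 were lower and 0 higher in adult than in embryonic fibroblasts, where 11.2% of all genes were lower and 8.34% higher. Grb10, an adaptor that dampens signalling of the insulin and IGF1 receptors, had means of 9.48 ± 0.17 in adult fibroblasts, 11.18 ± 0.02 in embryonic fibroblasts and 11.75 ± 0.07 in cardiomyocytes, and was 3.26-fold lower in adult than in embryonic fibroblasts (limma adjusted p = 3.53e-06). The docking protein gene Gab1 was 2.03-fold lower there (adjusted p = 0.00025). Irs1, an insulin receptor substrate, was 2.59-fold lower in embryonic fibroblasts than in cardiomyocytes (-1.37 ± 0.26, adjusted p = 0.00445), with embryonic fibroblast values of 9.05, 8.92 and 9.93. Grb14, an inhibitory adaptor of the insulin receptor, was 2.26-fold lower in embryonic fibroblasts than in cardiomyocytes (-1.18 ± 0.10, adjusted p = 8.34e-05). Of 16 PI3K and AKT genes 1 was higher and 2 lower in adult than in embryonic fibroblasts, with differences from -0.58 to 0.43, a share near the 19.5% of all genes called in either direction.

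In the growth hormone axis, which drives Igf1 in the liver, Jak2, the kinase of the growth hormone receptor and of many cytokine receptors, had means of 10.98 ± 0.31 in adult fibroblasts, 10.24 ± 0.05 in embryonic fibroblasts and 9.12 ± 0.13 in cardiomyocytes. It was 1.67-fold higher in adult than in embryonic fibroblasts (limma adjusted p = 0.00556) and 2.18-fold higher in embryonic fibroblasts than in cardiomyocytes (adjusted p = 0.000684). The receptor gene Ghr was 1.37-fold higher in adult fibroblasts than in cardiomyocytes (0.46 ± 0.10, adjusted p = 0.00624). It was not called in the other 2 comparisons (0.19, adjusted p = 0.248, between the fibroblast groups and 0.27, adjusted p = 0.103, between the embryonic groups).

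The RNA-binding proteins that Igf2bp1 and Igf2bp3 encode are named for Igf2 messenger RNA and are typical of embryonic cells. Igf2bp1 had means of 7.03 ± 0.31 in adult fibroblasts, 9.25 ± 0.16 in embryonic fibroblasts and 8.77 ± 0.05 in cardiomyocytes, and Igf2bp3 7.50 ± 0.09, 9.72 ± 0.02 and 9.79 ± 0.14. Both were lower in adult than in embryonic fibroblasts, by 4.67-fold and 4.66-fold (limma adjusted p = 1.06e-05 and 8.72e-07). The excess of Igf2bp1 in embryonic fibroblasts over cardiomyocytes (0.48, adjusted p = 0.0464) did not pass in its other probe set (0.15, adjusted p = 0.37) and was lost in 10 of the alternatives in all.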

How the data were processed

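The deposited values are log2 expression per probe set and array. The authors derived them with RMA, per the submitters' processing notes; RMA corrects background, normalizes arrays to each other and compresses differences of dim genes. The log base is not stated, and log2 was inferred from the range of 2.70 to 14.20. The RMA version, genome build and annotation are not given in the sources used.

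Of 28767 probes, 21776 had 1 gene symbol in the platform annotation; 1618 with several and 5373 with none were left out. Entrez identifiers placed 21686 in the RefSeq table of GRCm38.p6. Where a gene had several probes, the one with the highest mean over all arrays was kept, which left 19933 genes.

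Differences come from limma 3.58.1 (lmFit and eBayes, R 4.3.3), with a mean per group over all 9 arrays and no filter. The fit was run on simulated data with independent noise and the same spread per gene in all groups. That check does not cover the lower correlations among the adult arrays. Tests were two-sided, adjusted by Benjamini-Hochberg over all genes, and called at an adjusted p under 0.05. Groups come from the sample titles. The number of arrays limits the precision.

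The 8 genes, 7 pathway lists and 7 marker lists were chosen with earlier results of these data known. Pathway genes are named where called with a difference of at least 1 log2 unit in any comparison; Igf2, Igf2r, Insr and Ghr are named in any case. Alternatives were a fit of the 2 groups alone, a replicate block, centring, quantile normalization, leaving out genes below the 30th percentile, all or single probes of a gene, array weights, an intensity trend, robust eBayes, and leaving out each array or replicate 3 of both fibroblast groups.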

Additional observations from a re-analysis of the deposited data

How the results depend on the processing

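Over the 20 alternatives, the 24 differences of the 8 genes gave 480 values, of which 458 kept their direction and their side of the threshold, 13 passed it in addition, 7 no longer passed it and 2 changed sign. Many alternatives could not change a difference, only its adjusted p. Each of the 8 genes has 1 probe set, so the probe alternatives repeat its value. The block, the trend, robust eBayes and leaving out an array of the group not compared also keep it. The 458 are thus not separate checks. Both sign changes were of Igf1r between embryonic fibroblasts and cardiomyocytes, a difference that was not called. It ranged from -0.043 to 0.12 when arrays were left out (-0.03 without cardiomyocyte replicate 3). Outside the 8 genes, the sign changed for the other probe set of Irs1 between adult and embryonic fibroblasts (0.0227, limma adjusted p = 0.937). That difference was not called in either probe set. Leaving out arrays gave 4 to 7 called genes of the 8 between adult and embryonic fibroblasts, the 4 without embryonic fibroblast replicate 2, 5 to 7 between embryonic fibroblasts and cardiomyocytes and 6 to 7 between adult fibroblasts and cardiomyocytes. For the 48 pathway genes the counts ran from 13 to 19, 13 to 19 and 21 to 27. With the replicate block 6, 5 and 7 of the 8 genes were called, as without it, and 16, 18 and 25 pathway genes, against 17, 17 and 27. The block changed no call of the 8 genes. Same-numbered arrays showed no clear pairing: their deviations from the group means had correlations from -0.20 to 0.20, and an array was nearest to its own number in 3 of 9 pairs. With 3 arrays per group, such correlations cannot tell whether samples were paired. The signal over background of single probes is not held by RMA values, so a level that is dim cannot be told from background.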

Other observations

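Of the 8 genes, 7 had their lowest embryonic fibroblast value in replicate 3, where 40.9% of all genes did, and 7 had their lowest cardiomyocyte value in replicate 3, where 39.2% of all genes did. Igfbp7 was the exception in embryonic fibroblasts (10.08 in replicate 3) and Igfbp6 in cardiomyocytes (7.77 in replicate 3). In embryonic fibroblast replicate 3 the fibroblast markers averaged 10.19, against 10.41 and 10.29 in replicates 1 and 2, and the endothelial markers 9.70, against 10.14 and 10.18. The cardiomyocyte markers were instead highest there, at 11.53 against 11.27 and 10.82, as were the macrophage markers, at 8.35 against 8.23 and 7.99. In adult fibroblasts 4 of the 8 genes were lowest in replicate 3, where 32.1% of all genes were.

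The epicardial and mesothelial markers averaged 7.76 to 7.78 in adult fibroblasts, 8.42 to 8.60 in embryonic fibroblasts and 7.81 to 7.95 in cardiomyocytes, so that they were highest in the group with the highest Igf1, Igfbp4 and Igfbp5. The endothelial markers also averaged highest there. The part of these cell types in those levels was not tested. Markers of smooth muscle and pericytes averaged 8.04 to 8.71, 8.88 to 8.93 and 8.89 to 8.99 in the same groups, and erythroid markers 7.08 to 7.15, 8.40 to 8.43 and 9.15 to 9.33. The smooth muscle and pericyte average hides members that moved in opposite directions. In adult against embryonic fibroblasts 2 of the 9 were called higher and 4 lower (-2.59 to 2.29), beside 8.34% and 11.2% of all genes. Of the 5 erythroid markers measured, 0 were called higher and 3 lower there, beside the same shares of all genes, and 2 were not called (-4.80 to 0.03). The erythroid average thus rests on part of its members.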
